A study of Mus musculus with 11 samples.

Results

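Genes of the adult skeletal muscle fiber were followed one by one in 11 OvTrpMyc cell lines. The list holds 41 genes of the sarcomere, of calcium handling, and of energy supply. It was chosen by measured values, since high counts on such genes in these same libraries led to it. Of the 41 listed genes, 40 were found among the 28284 genes in the counts, and Acta1, the actin of skeletal muscle, was not analysed here. The level of the list and its split between libraries are therefore given as a description, with no test. The only test of levels between groups is that of uterus against ovary lines, the groups of the labels, and it is not independent of that split.

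Each line was grown ex vivo from minced tissue of a mouse with the genotype Ovgp1-Trp53-R270H-Myc, in which the Ovgp1 promoter, active in the epithelium of the fallopian tube, drives mutant p53 and MYC from a cassette at the Trp53 locus. All 11 lines come from mice with this transgene and were kept in RPMI 1640 with no treatment, and ages of the 7 mice were not given with the labels. From an ovary came 7 lines, where ROV is the right and LOV the left one (both ovaries of F318 and of F364, and the right ovary of F319, F326, and F339), from a uterus 2 (F319 and F333), and 1 each from a splenic tumor (F326) and a peritoneal tumor (F361). Each line is 1 library of polyadenylated RNA, and nothing in the labels says that a line is a clone. Per the study's methods, mutant p53 was no longer expressed in F361.

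In the sarcomere, myosin of the thick filament pulls on actin of the thin filament when calcium released through the ryanodine receptor binds troponin C. Most parts of this machine exist in a fast and a slow form made from separate genes, and the fastest mouse limb fibers carry the heavy chain of Myh4, followed by Myh1, Myh2, and the slow Myh7. Most of these genes are textbook products of mature fibers, while some, among them Ttn, Ldb3, Jph1, Cmya5, Tnnt1, Tnnc1, and Actn2, are also made in other tissues or cells.

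The sequences of the heavy chains are shown first, because 3 of them are near copies and share reads where they do not differ. The first 60 coding bases, from the transcripts of GENCODE M21 on GRCm38, are printed 5′ to 3′. Capitals mark the bases that differ from Myh4, where Myh7 was set against bases 4 to 63 of Myh4 because its start is 1 codon shorter.
Myh4: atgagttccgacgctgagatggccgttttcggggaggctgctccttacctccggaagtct
Myh1: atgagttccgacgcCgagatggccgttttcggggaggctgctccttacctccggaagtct
Myh2: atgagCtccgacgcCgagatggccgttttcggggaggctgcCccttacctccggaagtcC
Myh7: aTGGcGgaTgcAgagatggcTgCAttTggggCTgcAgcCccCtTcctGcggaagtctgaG
Myh1 differed from Myh4 at 1 of these bases, Myh2 at 4, and Myh7 at 18. Over whole transcripts the genes were easier to tell apart. Of the stretches of 150 bases, the length of a read, 2.49% of those in Myh1, 2.06% in Myh2, and 0.511% in Myh4 occurred in another gene's transcripts. For Myh7 it was 5.43%, shared with the heart myosin Myh6. How the counting treated reads with several matches was not given in the sources used here, so values of these 4 genes are uncertain. For a gene with few counts beside an abundant copy, such as Myh2 beside Myh1, the uncertainty can exceed these shares.

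Myh1 (chromosome 11 of GRCm38, 67200052 to 67224575), Myh2 (67171027 to 67197517), and Myh4 (67238029 to 67260446) lie side by side on the plus strand, and Myh7 lies on chromosome 14 (54970684 to 54994626, minus strand). The 40 genes lie on 14 chromosomes, with 8 on chromosome 7 and 4 on chromosome 11. The exons of 19 overlap another gene, and in 4 the overlap is over 20% of the exon bases. Tnnc2 is the extreme, since 74% of its exon bases lie over Ube2c on the opposite strand. The others were Mb (31.9%), Atp2a1 (21.9%), and Cmya5 (21.7%). The library kit keeps the strand, but the strand setting of the counting was not given in the sources used here. These values may therefore hold reads of the partner, or lack reads that matched both genes and were not counted.

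Upstream sequence is shown for the highest heavy chain, a low fast form, and the slow form. Windows of 250 bases before the RefSeq start (GRCm38.p6) were searched for CAGCTG, which reads the same on both strands and is a form of the E-box bound by MyoD family factors, for the MEF2 and CArG motifs on both strands, and for TATAAA on the gene's strand. Motifs were allowed to overlap. Capitals mark the matches.
Myh4 (chr11:67237562-67237811, plus strand): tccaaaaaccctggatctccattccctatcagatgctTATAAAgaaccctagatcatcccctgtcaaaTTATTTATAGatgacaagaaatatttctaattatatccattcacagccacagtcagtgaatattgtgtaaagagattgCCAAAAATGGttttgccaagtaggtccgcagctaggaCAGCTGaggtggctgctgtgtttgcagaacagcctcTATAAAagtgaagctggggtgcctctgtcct
Myh2 (chr11:67170777-67171026, plus strand): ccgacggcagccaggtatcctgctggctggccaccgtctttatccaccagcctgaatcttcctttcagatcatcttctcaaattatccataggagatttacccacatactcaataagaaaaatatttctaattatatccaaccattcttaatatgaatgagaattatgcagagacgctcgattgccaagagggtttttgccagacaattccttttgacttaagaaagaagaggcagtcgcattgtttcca
Myh7 (chr14:54994627-54994876, minus strand): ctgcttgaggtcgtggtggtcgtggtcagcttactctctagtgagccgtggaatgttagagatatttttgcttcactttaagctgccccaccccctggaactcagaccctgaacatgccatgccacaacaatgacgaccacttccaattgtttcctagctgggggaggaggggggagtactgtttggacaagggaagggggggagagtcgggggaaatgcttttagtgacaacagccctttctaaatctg
The Myh4 window held all 4 motifs, and the windows of Myh2 and Myh7 held none, which says only that these letters are not in these windows. The Myh1 window, not printed here, held MEF2 and TATAAA but neither CAGCTG nor CArG. RefSeq gave 35 windows for 28 of the genes. CAGCTG was in 13 of the 35 (37.1%) against 13.0% of all 32851 windows, MEF2 in 5 (14.3% against 2.92%), CArG in 4 (11.4% against 1.47%), and TATAAA in 3 (8.57% against 7.59%). Windows of 1 gene can overlap, and a match is a description of sequence and not of binding.

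The libraries fell into 2 sets by library number, which the sample descriptions give. In libraries 1 to 7 the 40 genes held 7.98% to 14.99% of all counts. In libraries 8 to 11 the share was 0.162% in F318 LOV, 0.707% in F319 uterus, 1.08% in F339 ROV, and 1.27% in F333 uterus, which are libraries 9, 10, 8, and 11 in that order. The numbering is not a labelled batch, and both uterus lines are in the second set. Y-linked genes moved with the same split, although most lines are labelled as grown from an ovary or a uterus. Per the study, uterus, ovaries, and fallopian tubes were sampled from the mice dissected for cell lines, and none is described as male. Of Ddx3y, Eif2s3y, Kdm5d, and Uty, 4 of 4 were higher in every library 1 to 7 than in any library 8 to 11, as were 16.8% of all genes tested. Their summed level lay between 128 and 174 CPM in the first set and between 1.75 and 19.2 CPM in the second, and only Kdm5d in F318 LOV was at 0. CPM stands for counts per 1000000 counts of a library, whose totals were 13580525 to 27044598, so that 3 counts, taken as the floor of detection, are 0.111 to 0.221 CPM. The part of the Y-linked signal in the results was not tested. Fewer cells of a type and less RNA per cell cannot be told apart in bulk libraries.

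The labels call the cells ovarian cancer, and the defining markers of that epithelium were low in most lines. Epcam had at most 2.12 CPM and was at 0 in 6 libraries, and Pax8 had at most 3.04 CPM. Krt8 and Krt18 reached 52.7 and 67.9 CPM in F319 ROV, where the 8 epithelial markers had their highest sum, and Krt18 was at 39.9 CPM in F364 ROV. Wt1 was at 65.6 CPM in F364 ROV, 67.2 in F326 ROV, and 72.7 in F319 ROV and at most 5.85 CPM elsewhere, and Krt7 was highest in F333 uterus with 40.5 CPM. That sum was 2.91 to 215 CPM in the first set of libraries and 5.69 to 41.8 CPM in the second. Of 4 mesenchymal genes, Vim, Col1a1, and Fn1 were higher in every library 8 to 11 than in any library 1 to 7, as were 25.9% of all genes tested. Col1a2 overlapped, at 5.21 CPM in F319 uterus and at up to 3672 CPM in the first set (F318 ROV). Their part in the results was not tested.

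All 40 fiber genes had at least 10 counts in at least 4 libraries. Of these, 34 were higher in every library 1 to 7 than in any library 8 to 11, while 16.8% of the 16250 genes tested were, and 4202 genes (25.9%) were separated the other way. The rule for the list used this split, so nothing is read from the count. The median level in libraries 1 to 7 was 19.95 times that in libraries 8 to 11 at the median gene, with a range from 3.95 (Sln) to 79.3 (Myh7). The genes just inside the separation were Myl1, whose lowest value in libraries 1 to 7 was 1.11 times the highest in libraries 8 to 11, and Ampd1 (1.66 times). Just outside were Casq1 (0.958 times) and Pvalb (0.672 times), and the others that overlapped were Tnni1, Myl2, Myl3, and Sln. F333 uterus gave the highest value of libraries 8 to 11 for Casq1, Pvalb, Myl1, Myl2, Myl3, and Ampd1, and without it 38 genes were separated.

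**Figure D1:**
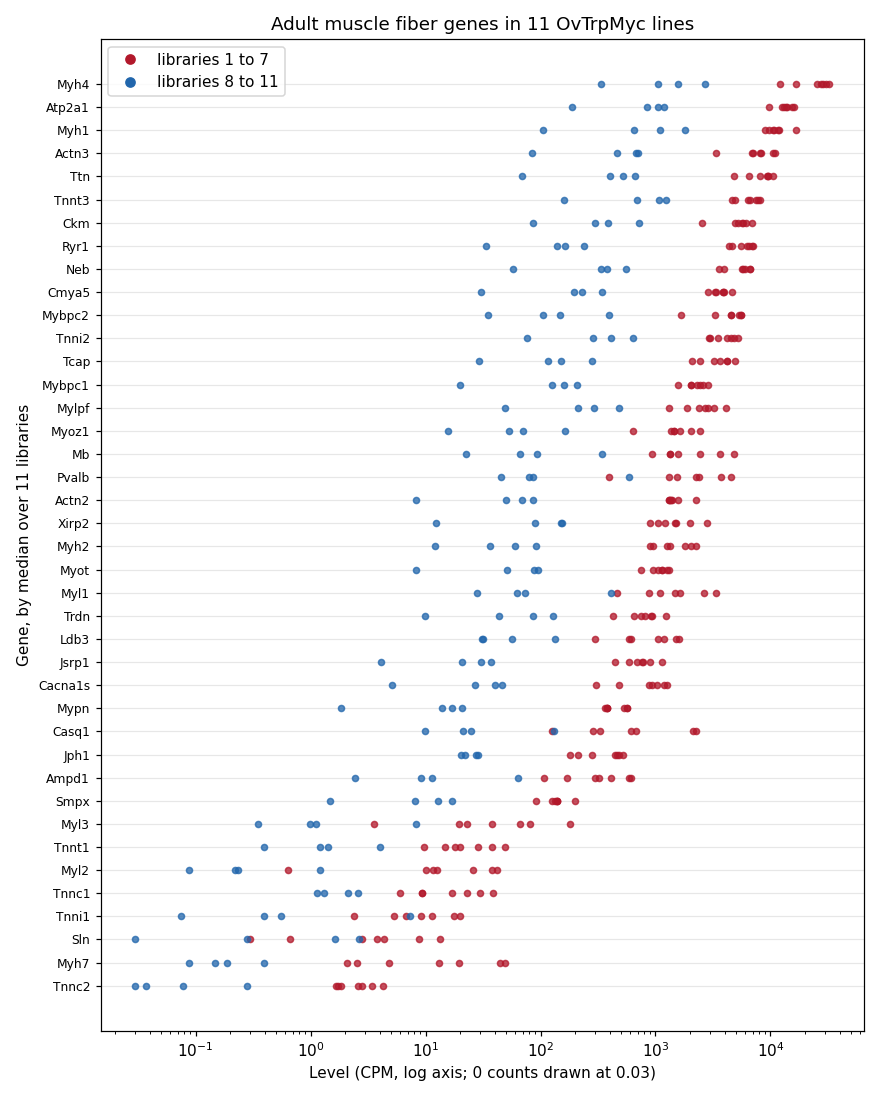
Level of each of the 40 genes (CPM, log axis, 1 point per library), ordered by the median over 11 libraries. Libraries 1 to 7 (red) lie to the right of libraries 8 to 11 (blue) for 34 genes, and the sets overlap for Casq1, Pvalb, Myl2, Myl3, Tnni1, and Sln.

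The fast heavy chains made up almost all adult myosin counts in every line. Myh4, of the fastest fibers, ranged from 12090 CPM in F318 ROV over a median of 27684 to 32188 CPM in F364 LOV in libraries 1 to 7. In libraries 8 to 11 it was at 1568 CPM in F339 ROV, 1057 in F319 uterus, 2676 in F333 uterus, and 339.1 in F318 LOV. The 2 sets did not overlap, and F333 uterus was the highest of the second set. Myh1 ranged from 9039 over 10710 to 16836 CPM in libraries 1 to 7. It was at 1822, 105, 1092, and 646 CPM in libraries 8, 9, 10, and 11, in that order. Unlike Myh4, Myh1 was highest in F326 splenic tumor among the first set and in F339 ROV among the second. Myh2, of the fast oxidative fibers, was lower, at 894 to 2263 CPM and at 59.6, 12.05, 36.5, and 91.1 CPM. Per kilobase of exon, Myh4 had rank 1 of the 40 genes in libraries 1 to 7 (a median of 4602 CPM per kilobase) and rank 5 in libraries 8 to 11.

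The ratio of Myh1 to Myh4 counts split the lines in another way than the total level did. It was 1.16 in F339 ROV, 1.03 in F319 uterus, 1.01 in F326 splenic tumor, and 0.871 in F318 ROV, and between 0.242 (F333 uterus) and 0.420 (F326 ROV) in the other 7. Each of the first 4 lines has a counterpart of the same organ or mouse on the other side of the gap. F318 ROV and F318 LOV, the ovaries of 1 mouse, had ratios of 0.871 and 0.310, while F364 ROV and F364 LOV had 0.350 and 0.281. The thinnest of these values, in F318 LOV, rests on 2409 counts of Myh1 and 7770 of Myh4.

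**Figure D2:**
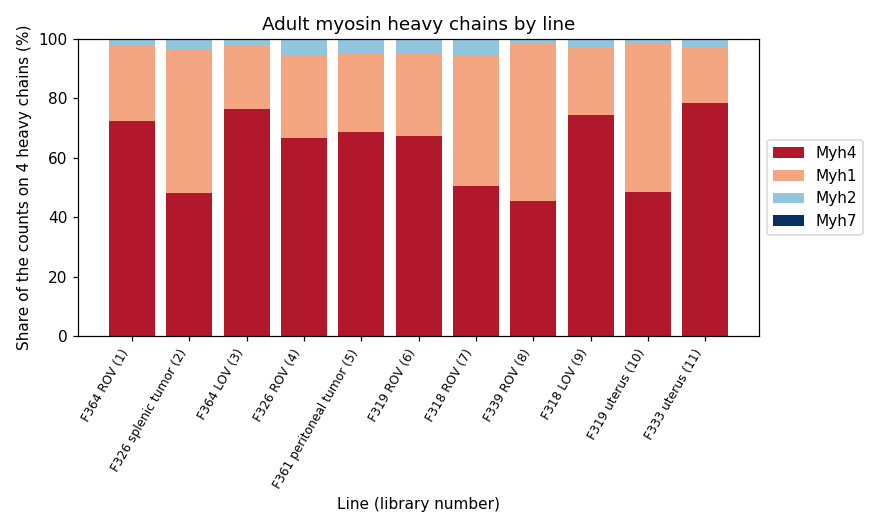
Share of Myh4, Myh1, Myh2, and Myh7 in the summed counts of the 4 heavy chains (%), 1 bar per line with its library number. Myh1 took 43.9% to 52.8% in F326 splenic tumor, F318 ROV, F339 ROV, and F319 uterus and 18.9% to 28.0% in the others, and the share of Myh7 is too small to see.

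Myh7, the heavy chain of slow fibers, held at most 0.115% of the heavy chain counts. In libraries 1 to 7 it ranged from 2.09 CPM (33 counts, F364 LOV) over 13.2 to 49.4 CPM (1104 counts, F319 ROV). In libraries 8 to 11 it had 10, 2, 4, and 4 counts, so its share there was 0.0114% in F339 ROV (95% Wilson interval 0.00617% to 0.0209%) and 0.0191% in F318 LOV (0.00525% to 0.0697%). The interval in F318 LOV covers the share in 4 of the libraries 1 to 7, and a difference from those was not detectable at this depth. Intervals cover counting error only, since each rests on the counts of 1 library. The reads carried no molecular identifiers, so even that error is approximate. Myh6, which shares sequence with Myh7, had 4.18 to 16.7 CPM in libraries 1 to 7.

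Light chains followed the same order, with the fast forms far above the slow ones. In what follows the first 3 values are the lowest, median, and highest of libraries 1 to 7, and the next 4 are those of libraries 8, 9, 10, and 11. Mylpf, the fast regulatory light chain, was at 1316, 2708, and 4102 CPM against 294, 49.1, 210, and 483 CPM. Myl2, its slow and ventricular counterpart, was at 0.633, 12.5, and 41.5 CPM and had 6, 2, 6, and 26 counts in libraries 8 to 11. Myl1, the fast essential light chain, was at 458, 1471, and 3332 CPM against 73.0, 28.2, 62.4, and 414 CPM. Myl1 in F333 uterus came close to F318 ROV, the lowest of the first set. Myl3, the slow essential light chain, was at 3.54, 37.6, and 181 CPM, with the highest value in F361 and the lowest in F318 ROV. In libraries 8 to 11 Myl3 had 25, 8, 30, and 178 counts, and F333 uterus with 8.26 CPM was above F318 ROV.

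Troponin switches the thin filament, with T as the tropomyosin-binding, I as the inhibitory, and C as the calcium-binding subunit. Tnnt3, the fast T form, was at 4610, 6589, and 8167 CPM against 1066, 162, 686, and 1236 CPM, and the slow Tnnt1 was at 9.62, 19.8, and 49.2 CPM against 1.41, 0.393, 4.03, and 1.21 CPM. Tnni2, the fast I form, was at 2944, 4203, and 5216 CPM against 407, 76.6, 286, and 634 CPM. The slow Tnni1 had an exception: 188 counts (7.37 CPM) in F339 ROV, above 3 lines of libraries 1 to 7, while it had 9, 2, and 12 counts in libraries 9, 10, and 11. F339 ROV did not stand out in Tnnt1 (36 counts) or Myh7 (10 counts). Tnnc1, the C form of slow fibers and heart, was at 5.95, 17.0, and 38.7 CPM against 2.12, 1.13, 2.59, and 1.30 CPM. Its fast counterpart Tnnc2 had only 26 to 67 counts in libraries 1 to 7 and 2, 0, 1, and 6 counts in libraries 8 to 11. This was the only pair in which the fast form was below the slow one, in all 11 libraries. Tnnc2 is the gene whose exons lie mostly over Ube2c, and the part of lost reads in its low counts was not tested.

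Expressed as fast over slow counts, the heavy chains had a median ratio of 7192 over the 11 libraries, troponin I of 546, troponin T of 332, the regulatory light chains of 270, and the essential light chains of 49.9. For troponin C the ratio was 0.124. Mybpc2 and Mybpc1, the myosin-binding proteins C named fast and slow, were close to each other with a median of 1.88. Mybpc1 is also made in fast fibers. Mybpc2 was below Mybpc1 only in F339 ROV (0.710) and in F319 uterus, the lines with the most Myh1 relative to Myh4. Mybpc1 itself was at 1563, 2309, and 2838 CPM against 209, 19.99, 127, and 160 CPM, and Mybpc2 at 1676, 4582, and 5571 CPM against 149, 34.6, 105, and 390 CPM.

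**Figure D3:**
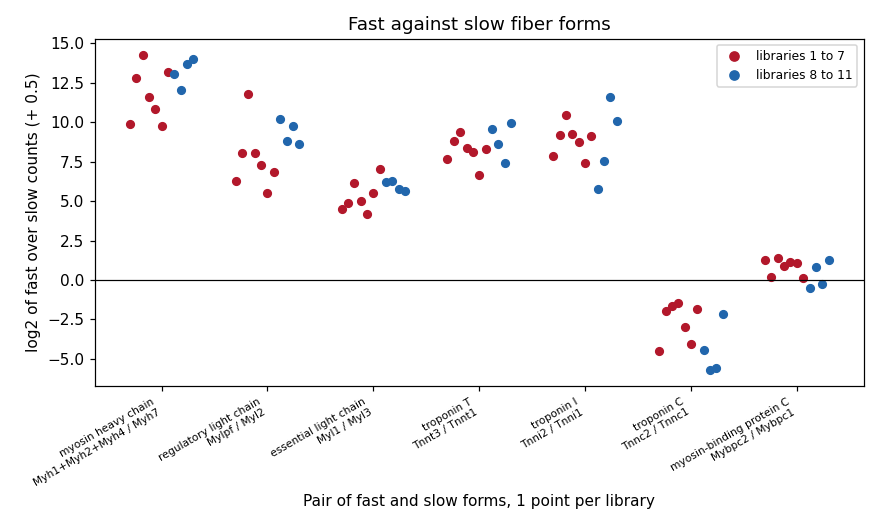
log2 of fast over slow counts, each with 0.5 added, for 7 pairs of fiber genes, with 1 point per library. The heavy chain, light chain, troponin T, and troponin I pairs lie above 0 in every library, the troponin C pair lies below 0 in every library, and the pair of myosin-binding proteins C lies near 0.

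In the 6 pairs of the mean, the share of a slow gene in the fiber counts varied 8.24-fold (Tnnt1) to 70.9-fold (Myl2), and that of a fast partner 1.66-fold (Myh4) to 5.65-fold (Myl1), apart from Tnnc2, which had 0 counts in F318 LOV. The pair of myosin-binding proteins C went the other way, with 1.91-fold for slow Mybpc1 and 3.14-fold for fast Mybpc2. Counting error is larger for the slow genes, with few counts in libraries 8 to 11. Together Myh7, Myl2, Myl3, Tnnt1, Tnni1, and Tnnc1 held 0.0314% of the fiber counts in F364 LOV and 0.193% in F361. F364 ROV and F364 LOV, the right and left ovary of 1 mouse, were closer in the fast forms than in the slow ones. Myl2 had 594 counts in F364 ROV and 10 in F364 LOV, Myh7 had 706 and 33, Tnni1 had 313 and 38, Tnnc1 had 610 and 94, and Tnnt1 had 591 and 152. Of these 6 slow genes all were lower in F364 LOV, whose library total is nearly the same as that of F364 ROV. F319 ROV had the highest levels of Myh7, Myl2, and Tnnt1, but its Myl3 was at 19.6 CPM, under the median of libraries 1 to 7. In F361 it was the reverse, with the highest Myl3 and less Myh7 (19.7 CPM) than F364 ROV or F319 ROV. Slow genes thus did not keep a fixed ratio to each other between lines.

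Whether the fast-to-slow balance differs by organ was tested over the lines. The mean log2 ratio over 6 pairs (the heavy chains, both light chains, and the 3 troponins) was 7.11 and 7.70 in the uterus lines and 6.52 ± 1.13 (SD, n = 7) in the ovary lines, which ranged from 5.12 to 8.40. The difference was 0.89, under the SD of the ovary lines (exact two-sided permutation test over 36 splits, p = 0.333, where the smallest possible is 0.0278). Its size depended on how the pairs were combined, at 0.05 with the 6 fast and the 6 slow partners summed (exact p = 0.972) and 1.87 for the heavy chains alone (exact p = 0.194). Within libraries 8 to 11 the difference was 0.93, with an exact p of 0.333 over 6 splits, a design that cannot reach 0.05.

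Genes of calcium handling ranged from some of the steadiest to some of the most variable. Atp2a1, the calcium pump of the fast fiber, was at 9749, 13769, and 15867 CPM against 1189, 190, 850, and 1048 CPM. Its share of the fiber counts was the most even of the 40, from 8.23% in F333 uterus to 12.2% in F318 ROV, a range of 1.49-fold. Ryr1, the calcium release channel, was at 4320, 6210, and 7013 CPM against 241, 33.3, 163, and 139 CPM. The share of Ryr1 differed by only 1.47-fold within libraries 1 to 7 but by 4.99-fold over all 11, because it was between 1.09% and 2.31% in libraries 8 to 11 and at least 3.71% in the others. Cacna1s, the voltage sensor that opens it, was at 306, 934, and 1267 CPM against 40.2, 5.15, 27.0, and 46.5 CPM.

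Casq1, which stores calcium in the sarcoplasmic reticulum, was at 127, 610, and 2236 CPM against 24.8, 9.91, 21.3, and 132 CPM. F326 ROV (2103 CPM) and F361 (2236 CPM) were more than 3 times above each of the other 5 libraries of the first set. Pvalb, a calcium buffer of fast fibers, was at 392, 2230, and 4495 CPM against 85.6, 45.4, 79.6, and 583 CPM, and again F361 and F326 ROV were highest and F318 ROV lowest. The share of Casq1 varied 9.39-fold and that of Pvalb 9.32-fold over the libraries. Trdn, which anchors calsequestrin, stayed within 1.98-fold. Jsrp1, a partner of the release channel, was at 446, 761, and 1146 CPM against 30.5, 4.06, 20.9, and 36.9 CPM.

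Jph1 and Sln departed from the rest. Jph1, which ties the reticulum to the surface membrane, was at 179, 447, and 525 CPM in libraries 1 to 7. In libraries 8 to 11 it was at 22.0, 28.5, 20.4, and 27.5 CPM, nearly level, and highest in F318 LOV, where nearly all other fiber genes were lowest. Sln, an inhibitor of the calcium pump, was the lowest of this group. It had 213 counts (13.5 CPM) in F326 splenic tumor and 155 in F318 ROV, but 4 in F361 and 10 in F326 ROV, and it had 67, 0, 44, and 6 counts in libraries 8 to 11. Its order was nearly the opposite of that of Casq1, since the lines with the most Casq1 had the fewest Sln counts in the first set.

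The scaffold genes were spread over the same range of levels. Ttn, the giant spring of the sarcomere, was at 4847, 9260, and 10542 CPM against 659, 69.4, 399, and 517 CPM, and Neb, which runs along the thin filament, at 3589, 5725, and 6620 CPM against 553, 57.2, 335, and 377 CPM. Actn3, the alpha-actinin of fast fibers, was at 3385, 8189, and 11045 CPM against 699, 84.1, 461, and 679 CPM. Actn2, the alpha-actinin of all fibers, was lower, at 1304, 1357, and 2232 CPM against 86.4, 8.25, 49.9, and 68.8 CPM. Tcap, which caps titin at the Z disc, was at 2062, 3604, and 4931 CPM against 150, 29.0, 117, and 280 CPM. Of the 8 further Z disc and scaffold genes, Myoz1, Myot, Ldb3, Mypn, Xirp2, Cmya5, and Smpx with Actn2, Cmya5 was the highest, at 2873 to 4669 CPM against 343, 30.1, 195, and 228 CPM, and Smpx the lowest, at 90.7 to 201 CPM against 12.7, 1.48, 8.02, and 17.0 CPM. Of these Mypn had the widest gap, with a lowest value in libraries 1 to 7 that was 17.4 times the highest in libraries 8 to 11.

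Among the genes of energy and oxygen supply, Ckm, the creatine kinase of muscle, was at 2542, 5619, and 6909 CPM against 390, 86.8, 298, and 714 CPM. Its share stayed between 3.19% and 5.61% of the fiber counts. Mb, myoglobin, was at 938, 1565, and 4832 CPM against 92.9, 22.4, 66.2, and 342 CPM, with F361 and F326 ROV highest, as for Casq1 and Pvalb. Ampd1, the AMP deaminase of muscle, was at 106, 325, and 614 CPM against 11.3, 2.44, 9.13, and 64.2 CPM, and F361, F326 ROV, and, in the second set, F333 uterus were again the highest.

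Whether 1 fixed fiber profile describes all libraries was examined from shares, which do not depend on the total level of the list. Each gene's share of the fiber counts in a library was set against its share in the other libraries summed. The median absolute log2 difference over the 40 genes ranged from 0.21 in F364 ROV to 0.85 in F339 ROV, with a median over libraries of 0.44, a fold of 1.36. It was 0.21 to 0.46 in libraries 1 to 7 and 0.63 to 0.85 in libraries 8 to 11, where the other libraries are mostly those of the first set. Over the 33 genes with at least 25 counts in every library it was 0.15 to 0.68, and the median counting error of these genes was 0.0068 to 0.057 on the same scale. F339 ROV was then at 0.48, below F318 LOV (0.60), F319 uterus (0.62), and F333 uterus (0.68), so its place as the highest rested on genes with few counts. Counting error leaves out culture and library preparation, whose spread was not measured, since no line was sequenced again. Between 2 genes (F364 ROV) and 13 genes (F339 ROV) differed by more than 2-fold. Against a profile from their own set alone, the median over libraries was 0.37 for libraries 1 to 7 and 0.39 for libraries 8 to 11.

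The fiber counts were concentrated on a few genes in each library. The 5 genes with the highest mean share over the libraries held 44.1% to 58.6% of the fiber counts, and the 10 highest by that mean 65.6% to 79.8%. Tnnt3 had a larger share in all of libraries 8 to 11 (at least 9.70%) than in any of libraries 1 to 7 (3.83% to 6.81%). Jsrp1, Mypn, Cacna1s, Actn2, and Ryr1 had smaller shares in all of libraries 8 to 11 than in any of libraries 1 to 7. Per kilobase, Myh4, Tnnt3, Atp2a1, Tcap, and Actn3 led in libraries 1 to 7, and Tnnt3, Atp2a1, Mylpf, Tnni2, and Myh4 in libraries 8 to 11. Duplicate reads were removed before counting, and Myh4 had up to 107 counts and Tnnt3 up to 81.5 counts per exon base. The part of that removal in the shares of the highest genes was not tested.

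**Figure D4:**
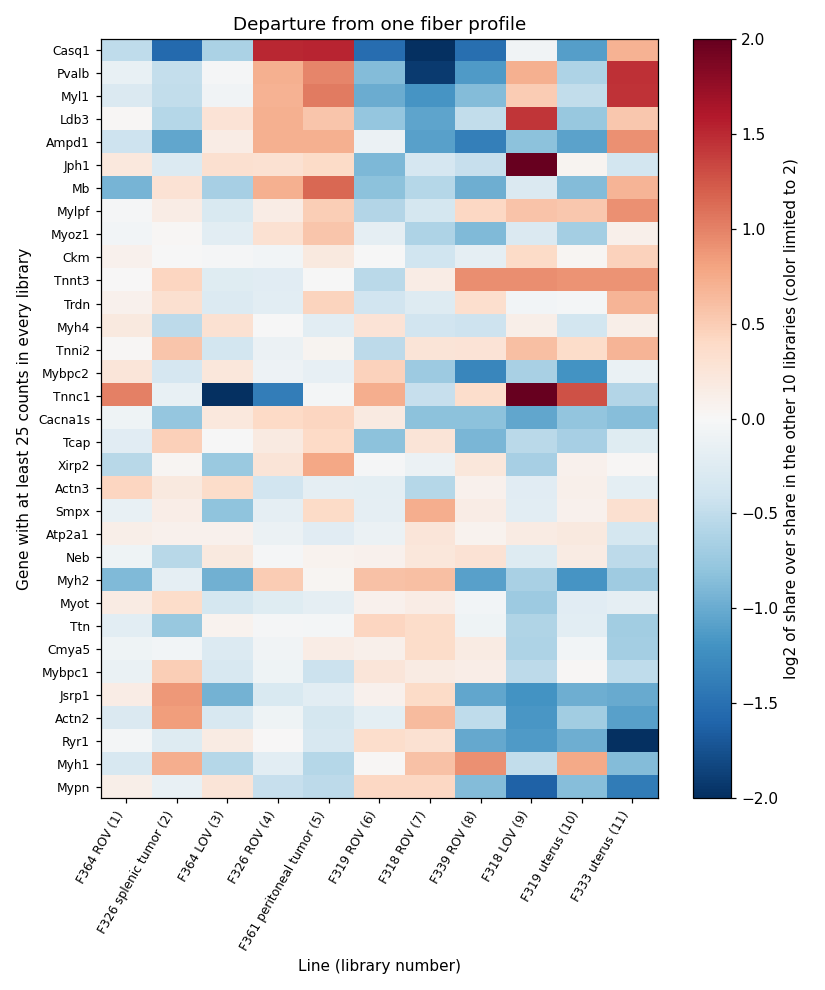
Heat map of log2 of each gene's share of the fiber counts over its share in the other 10 libraries summed, for the 33 genes with at least 25 counts in every library (rows) and the 11 lines with their library numbers (columns). Red is a higher and blue a lower share; Casq1 reaches 1.52 in F361 and -2.13 in F318 ROV, Jph1 reaches 2.68 in F318 LOV, and Tnnt3 lies at 0.90 to 0.93 in all of libraries 8 to 11.

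Set against each other directly over these 33 genes, the closest profiles were those of F339 ROV and F319 uterus, with a median absolute log2 difference of 0.12 and 32 of 33 genes within 0.5. Counting error alone had a median of 0.044 for this pair. These are different mice and organs. Next were F364 ROV and F364 LOV of 1 mouse (0.18) and F326 ROV and F361 of different mice (0.19). The other pairs from 1 mouse were at 0.50 (F326 ROV and the splenic tumor), 0.52 (F319 ROV and uterus), and 0.87 (F318 ROV and LOV). The median was 0.51 over the 4 pairs from 1 mouse and 0.51 over the 51 pairs from different mice. It was 0.42 within libraries 1 to 7 (21 pairs), 0.49 within libraries 8 to 11 (6 pairs), and 0.56 across them (28 pairs), and the 3 ranges overlapped.

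**Figure D5:**
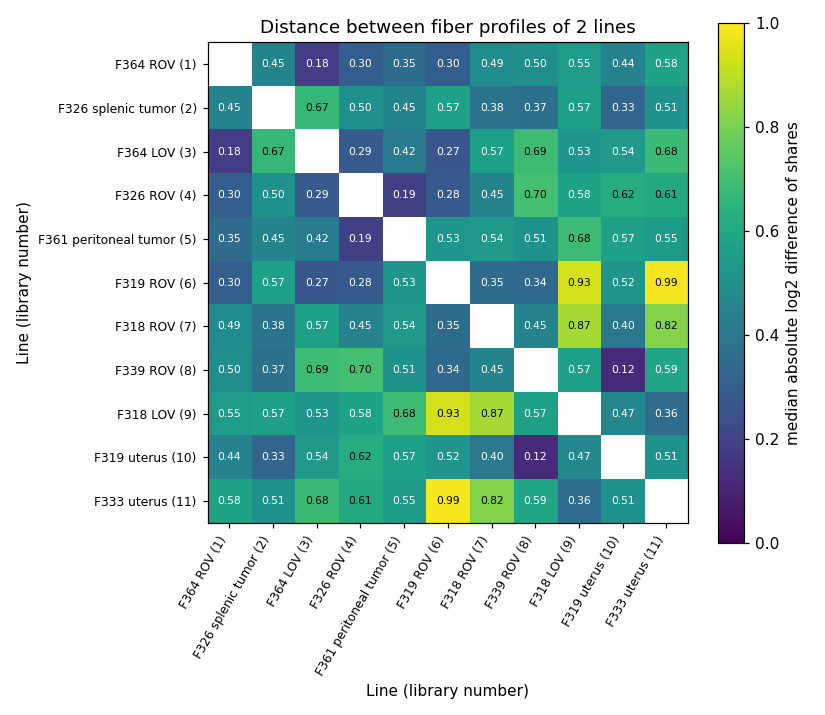
Median absolute log2 difference of the shares of 33 fiber genes between each 2 lines (library number in brackets), with the value in each cell and dark cells for close profiles. The closest pair is F339 ROV and F319 uterus (0.12) and the farthest is F319 ROV and F333 uterus (0.99).

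More than 1 direction was needed to describe the departures. In a singular value decomposition of the centered log2 shares, the first axis held 43.7%, the second 27.9%, and the third 10.5% of the variation. On the first axis Casq1, Pvalb, Myl1, and Ldb3 stood at one end, with F333 uterus, F318 LOV, F361, and F326 ROV, and Mypn, Myh1, Ryr1, and Actn2 at the other, with F318 ROV, F319 ROV, F326 splenic tumor, and F339 ROV. Each end thus held lines of both library sets. The second axis set F318 LOV, F319 uterus, and F339 ROV apart from F326 ROV and F364 LOV, with Tnnc1, Tnnt3, and Jph1 at one end and Ampd1 at the other.

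Libraries 8 to 11 could be compared with each other, where the total differed while the set was the same. The mean of F339 ROV, F319 uterus, and F333 uterus was 6.31 times the summed level in F318 LOV. Over the 33 genes with at least 25 counts in F318 LOV, the median ratio was 6.70. Only Jph1 (0.819), Tnnc1 (1.76), and Ldb3 (2.34) were under 3, and the highest was Ampd1 (11.5). In libraries 1 to 7, the SD of log2 CPM was 0.50 at the median of the 34 fiber genes with a mean of at least 20 CPM, against 0.41 over 7157 genes at that level.

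The labels allow 1 comparison of levels between groups, the 2 uterus lines against the 7 ovary lines. By the quasi-likelihood test of edgeR, 0 of 17446 genes (0%) and 0 of the 40 fiber genes passed a Benjamini-Hochberg adjusted p under 0.05, while 2308 genes and 13 fiber genes had an unadjusted p under 0.05. The 13 became 35 without F318 LOV, 26 without F339 ROV, 4 or 5 without each other ovary line, 0 without the F319 and 1 without the F333 uterus line, and 30 with the ovary lines of 1 mouse summed. The number over all genes moved as well, from 2308 to 4828 of 17048 without F318 LOV, 3989 of 17056 without F339 ROV, 1452 to 1677 without each other ovary line, 972 and 1306 without the F319 and F333 uterus lines, and 2572 of 17517 with the lines of 1 mouse summed, and nothing particular to the fiber genes is read from it. All 40 had a lower estimate in the uterus lines, with a median log2 difference of -3.58 against -0.05 over all genes. Ryr1 had a mean of 151 CPM in the uterus lines and of 4465 ± 3089 CPM (SD, n = 7) in the ovary lines, a log2 difference of -5.19 with a standard error of 2.03 and an edgeR adjusted p of 0.359. DESeq2 called 6.93% of the 18653 genes with an adjusted p and 20 of the 40 fiber genes. Organ and library number go together here, since both uterus lines are in libraries 8 to 11. Within those 4 libraries 0 of 37 fiber genes passed in edgeR, with 0 at an unadjusted p under 0.05. There 4 were lower in the uterus lines, and the median difference was 0.80, the other direction. This rested on F318 LOV. Without it, in an alternative added after seeing the data that leaves F339 ROV as the lone ovary line, 19 of 39 were lower, the median was 0.05, and 0 passed, with 1 at an unadjusted p under 0.05. With the mouse as a block, which rests the difference on the uterus and ovary lines of F319, 0 of 40 passed in edgeR, with 1 at an unadjusted p under 0.05, and all 40 were lower in the uterus, with a median of -4.48.

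Further genes of the adult fiber, heart, and developing muscle were listed apart from the 40, with the earlier results known. Of 44 further adult fiber genes, 43 had enough counts and 39 were higher in every library 1 to 7, a separation that 16.8% of all genes tested showed. Eno3, the enolase of muscle, had the highest value of these, 5921 CPM in F361, and Pygm, with at most 1.47 CPM, was the gene with too few counts. The reverse held for Atp2a2, the calcium pump of slow fibers and of many other cells, at 54.2 to 277 CPM against 477, 615, 481, and 557 CPM. Myoz3, Mss51, and Myl6b overlapped. Of 7 developing muscle genes found, 6 had enough counts and 5 were separated, among them Myh8, the perinatal heavy chain, at 140 to 287 CPM against 15.8, 3.88, 9.87, and 29.7 CPM. Myod1, a regulator of the muscle lineage, was at 62.6 and 65.0 CPM in F326 ROV and F361 and at 2.28 to 40.9 CPM in the other libraries of the first set. Of 4 heart genes with enough counts 1 (Myh6) was separated, a share near that of all genes, and Nppa and Myl7, defining markers of the atrium, were at or near 0. Tnnt2 of the same list was at 4.34 to 24.5 CPM in libraries 1 to 7 and at 49.7, 32.3, 2.33, and 143 CPM in libraries 8 to 11, and Actc1 reached 40.1 CPM in F364 LOV.

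The genes whose level was most like the sum of the list were found among 7943 others with a mean of at least 20 CPM, by Pearson's r over 11 libraries. The 15 closest were Txlnb (r = 0.997), Tmem182, Mlip, Eef1a2, Hrc, Ndrg2, Asb14, Rcsd1, Ankrd23, Tmem38a, Camk2b, Cpeb3, Rtn2, Trim54, and Myom2 (r = 0.993). Txlnb was at 381 to 955 CPM in the first set of libraries and at 7.38 to 47.3 CPM in the second. The 11 points share the split between the 2 sets, so this likeness is a description.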

How the data were processed

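mRNA of 11 cell lines was sequenced in 1 library each. Per the labels and the study's methods, the authors used a directional poly(A) kit, aligned paired-end reads of 150 bases to GRCm38 with STAR, removed duplicates with SAMtools RmDup, and counted reads on genes with featureCounts. The deposited values are raw counts per gene without normalization. Handling of multiple matches and strand was not given in the sources used here. The members and the other gene lists were chosen with earlier results of these data known. Groups were taken from sample titles and library numbers from descriptions. All 41 listed genes are named, other lists are given as counts with their extremes or exceptions, and the 15 most similar genes are named by correlation.

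Totals were 13580525 to 27044598 counts. CPM was computed from the total, and log2 ratios of counts with 0.5 added. Uterus and ovary lines were compared by edgeR 4.0.16 (quasi-likelihood, TMM, filterByExpr) in R 4.3.3, with DESeq2 1.42.0 as an alternative. Fast-to-slow ratios were compared by exact permutation in Python 3.11.15, and Wilson intervals came from scipy 1.17.1. The edgeR script was tested on simulated data. Sequences and positions are from GENCODE M21 and RefSeq on GRCm38. P-values measure the spread between lines, 1 library each, and lines of 1 mouse are not independent. Alternatives covered normalization, filters, pseudocount, library set, and left-out lines.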

Additional observations from a re-analysis of the deposited data

Results flagged for a closer look

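Myh1 in the ovary lines had 1 sample far from the others. F318 LOV was at 6.73 on the log2(CPM + 1) scale, the nearest other line was at 10.83, and the gap was 0.602 of the whole range of the 7 lines, above the critical value of 0.568. This was 1 of 42 values checked. The usual rate of about 1 flag in 20 by chance holds for lines of 1 population. The 7 ovary lines come from both library sets, with F339 ROV and F318 LOV in the set of lower fiber level. The genes were also chosen by these levels. That rate therefore does not apply here, and nothing is read from the flag. F318 LOV has the lowest fiber level of all libraries, and the part of this in the value was not tested.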

How the results depend on the processing

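The count of fiber genes that passed between uterus and ovary lines moved from 0 in edgeR to 20 in DESeq2 with its size factors, and the cause was not tested. It was 0 under the other 17 alternatives, with 0 to 0 when each line was left out. With a term for the library set, the direction turned: 4 of 40 were lower in the uterus lines, with a median of 0.88. This rested on F318 LOV, without which 18 of 40 were lower, with a median of 0.11 (added after seeing the data). The fast-to-slow difference kept its direction in all 17 alternatives, from 0.05 (summed partners, exact permutation p = 0.972) to 1.87 (heavy chains, p = 0.194). With each ovary line left out it was 0.65 to 1.20, with exact permutation p of 0.0714 to 0.464. With only 1 uterus line kept it was 1.18 (F333) and 0.59 (F319). Leaving out the troponin C pair, chosen after seeing the data, gave 1.15. None of the 6 pairs in the mean had 10 counts on both sides in every library, so that filter gave no value. The deviation from 1 profile was 0.37 to 0.49 over its 18 alternatives, of which the fits within each library set were added after seeing the data, and 0.42 to 0.49 with each library left out. Separated genes numbered 34 to 38 when each library was left out (37 without F318 ROV, 38 without F333 uterus). The labels give no replicate numbers, and a block by mouse, added after seeing the data, changed no call (0 genes). At the depth of F318 LOV, 2 counts of Myh7 or Myl2 set no ratio firmly.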
